A study of Mus musculus with 12 samples.

Results

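Protamines, transition proteins and germ-cell histones are the proteins that repackage DNA in meiotic and post-meiotic male germ cells. The 9 genes described here are Prm1, Prm2, Prm3, Tnp1, Tnp2, Hils1, H1fnt (now H1f7), Hist1h1t (now H1f6) and Hist1h2ba (now H2bc1), chosen as the non-control array probes that carry these gene names. They have 12 probes in all, and all 12 passed the filter on dim probes, so that all 9 genes stand among the 15830 genes tested.

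The RNA came from Leydig cells, which make testosterone between the seminiferous tubules, cut by laser from frozen testis sections of adult male C57BL/6J mice aged 21 weeks. DEHP mice had received di-(2-ethylhexyl)-phthalate, a plasticiser, by gavage for 21 days, dissolved in corn oil, at a daily dose of 200 mg per kg, and vehicle mice had received corn oil alone. DEHP mice 1 and 4 and vehicle mice 1, 2 and 4 are used, out of groups of 4 in the exposure; the other mice are not analysed here. RNA of a single cap per mouse went through repeated amplification, and the 6 pairs of a DEHP and a vehicle mouse were each run on arrays of either dye orientation, 12 arrays in all. In bulk RNA of this kind, fewer cells of a type and less RNA per cell cannot be told apart.

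In the maturing spermatid, the histones of somatic chromatin are first joined and replaced by germ-cell variants, which give way to transition proteins and then to protamines. Protamines are small, arginine-rich proteins that pack DNA far more tightly than nucleosomes do, and their transcripts are made in round spermatids and stored before translation. Leydig cells lie outside the seminiferous tubules and do not go through this exchange.

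The captured material was checked against markers of the labelled cell and of its neighbours. All 13 Leydig cell markers on the list were tested, and 10 of them were well above background on all 12 arrays. Of 18 spermatid markers other than the 9 genes, 17 were also well above background on all 12 arrays. So were 14 of 14 tested spermatocyte, 8 of 11 Sertoli cell, 7 of 10 macrophage and 3 of 6 peritubular myoid markers. The summed log2 level ran across mice from 18.32 to 19.27 for the 18 spermatid markers. For the 13 Leydig markers it ran from 16.11 to 17.68. The lists differ in length and probes, so these sums do not measure cell shares. Between 35.5% and 54.0% of probes were well above background per array and channel.

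One Prm1 probe shows the arginine-rich coding sequence of a protamine, with arginine codons in capitals. It spans 152 bases at chr16:10474052-10474203 on mm7 and skips 92 of them. Of its 19 whole codons, 12 encode arginine and 4 encode cysteine, and no other forward frame holds an arginine codon.
Prm1 probe: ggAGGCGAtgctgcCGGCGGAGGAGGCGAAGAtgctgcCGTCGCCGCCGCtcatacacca

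The 120 bases before the start sites of the main protamine and transition protein genes are shown because these genes are the ones with the largest differences below. They are RefSeq sequences on GRCm38.p6, all on the minus strand and printed in the gene's direction, for Prm1 (chr16:10796824-10796943), Prm2 (chr16:10792106-10792225), Tnp1 (chr1:73015900-73016019) and Tnp2 (chr16:10788656-10788775). Capitals mark a CRE-like match, TGANNTCA, the cyclic AMP response element with any middle bases, or a TATAA match, on either strand. The motifs were chosen after the promoters had been read.
Prm1: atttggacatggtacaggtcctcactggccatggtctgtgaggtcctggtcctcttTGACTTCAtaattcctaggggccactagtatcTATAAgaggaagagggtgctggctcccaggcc
Prm2: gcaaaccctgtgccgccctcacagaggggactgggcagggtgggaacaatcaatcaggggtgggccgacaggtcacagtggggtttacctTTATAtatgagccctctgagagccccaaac
Tnp1: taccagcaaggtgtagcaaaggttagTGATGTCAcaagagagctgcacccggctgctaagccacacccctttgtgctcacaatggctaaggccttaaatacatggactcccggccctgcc
Tnp2: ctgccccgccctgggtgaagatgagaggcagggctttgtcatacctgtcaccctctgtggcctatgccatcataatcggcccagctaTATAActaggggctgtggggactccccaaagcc

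The full palindrome TGACGTCA lay in the 250 bases before the start site of none of the 9 genes. It lay in the same stretch of 1.55% of 32851 RefSeq promoters. TGANNTCA lay in 3 of the 9, in Prm1 at -64 to -57, in Prm3 at -60 to -53 and in Tnp1 at -94 to -87, against 11.9% of all promoters. TATAA lay in 5 of the 9, against 22.8% of all promoters. It lay at -32 to -28 in Prm1, -30 to -26 in Prm2 on the reverse strand and -33 to -29 in Tnp2. In Hist1h1t it lay at -41 to -37 and in Hist1h2ba at -94 to -90. These are matches of letters in a window.

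Transcript levels were on average higher in DEHP mice for each of the 9 genes, but none passed the test. Mice of the same group also differed from one another. The largest differences were those of Tnp1, Prm1, Tnp2 and Prm2, from 1.15 down to 0.70 on the log2 scale, that is 2.22-fold to 1.62-fold. A difference above 0 was found for 48.3% of all genes tested. Values are log2 levels of a probe relative to the mean of the 5 mice, with n = 2 DEHP and n = 3 vehicle mice, and differences are DEHP minus vehicle. P-values are limma's over these 5 mice and set a difference against the spread between mice. For p-values, SE and intervals, limma draws that spread partly from all genes tested. The prior has 2.71 degrees of freedom, beside 3 residual ones from the 5 mice. The adjusted p was 1.00 for each of the 9 genes, and the share of all genes called was 0%, with 136 genes at an unadjusted p under 0.05.

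Among the protamines, Prm1 (brightest probe at chr16:10473905-10473964 on mm7) was at 0.32 and 0.88 in DEHP mice 1 and 4, against -0.13, -0.73 and -0.34 in vehicle mice 1, 2 and 4. Both DEHP mice lay above all vehicle mice. Its mean was 0.60 ± 0.39 in DEHP and -0.40 ± 0.31 in vehicle mice (SD), and the difference was 1.00 (SE 0.29, 95% interval 0.29 to 1.71). This is an unadjusted limma p of 0.0139, and an adjusted p of 1.00. The other two Prm1 probes gave, in the fit over all probes, differences of 1.00 (SE 0.32) and, for the coding probe shown above, 0.77 (SE 0.34), also with no overlap. On all 12 arrays each of the Prm1 probes was higher in the DEHP mouse of the pair.

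Prm2, the second protamine, made as a precursor that is then trimmed (probe at chr16:10469139-10469198), was at 0.02 and 0.82 in DEHP mice 1 and 4, against 0.32, -0.52 and -0.63 in vehicle mice 1, 2 and 4. Vehicle mouse 1 lay above DEHP mouse 1, so the groups overlapped, and the difference was 0.70 (SE 0.40). It was positive on 10 of 12 arrays, and 1 of its spots was saturated. Prm3, which lies between Prm2 and Tnp2 in the chromosome 16 cluster (probe at chr16:10468478-10468527), was at -0.06 and 0.21 in DEHP mice, against 0.02, -0.02 and -0.15 in vehicle mice. It was dim: well above background on 0 and 4 of the 6 arrays of DEHP mice 1 and 4, and on 2, 2 and 1 of the 4 arrays of vehicle mice 1, 2 and 4.

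Among the transition proteins, which occupy the DNA between histones and protamines, Tnp1 (probe at chr1:73257121-73257180) was at 0.12 and 1.26 in DEHP mice, against -0.32, -0.76 and -0.30 in vehicle mice 1, 2 and 4. The groups did not overlap, and the 2 DEHP mice differed by more than the 3 vehicle mice did among themselves. The means were 0.69 ± 0.81 in DEHP and -0.46 ± 0.26 in vehicle mice, and the difference was 1.15 (SE 0.38, 95% interval 0.20 to 2.10), with an unadjusted limma p of 0.0255. It was positive on all 12 arrays. Tnp2 (probe at chr16:10466155-10466214) was at 0.05 and 1.05 in DEHP mice, against 0.13, -0.80 and -0.43 in vehicle mice. Vehicle mouse 1 was above DEHP mouse 1, and the difference was 0.92 (SE 0.41), positive on 11 of 12 arrays. By pair, the mean of both dyes for DEHP mouse 1 over vehicle mice 1, 2 and 4 was -0.06, 0.83 and 0.49 for Tnp2, and 0.89, 1.88 and 1.47 for DEHP mouse 4.

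**Figure D1:**
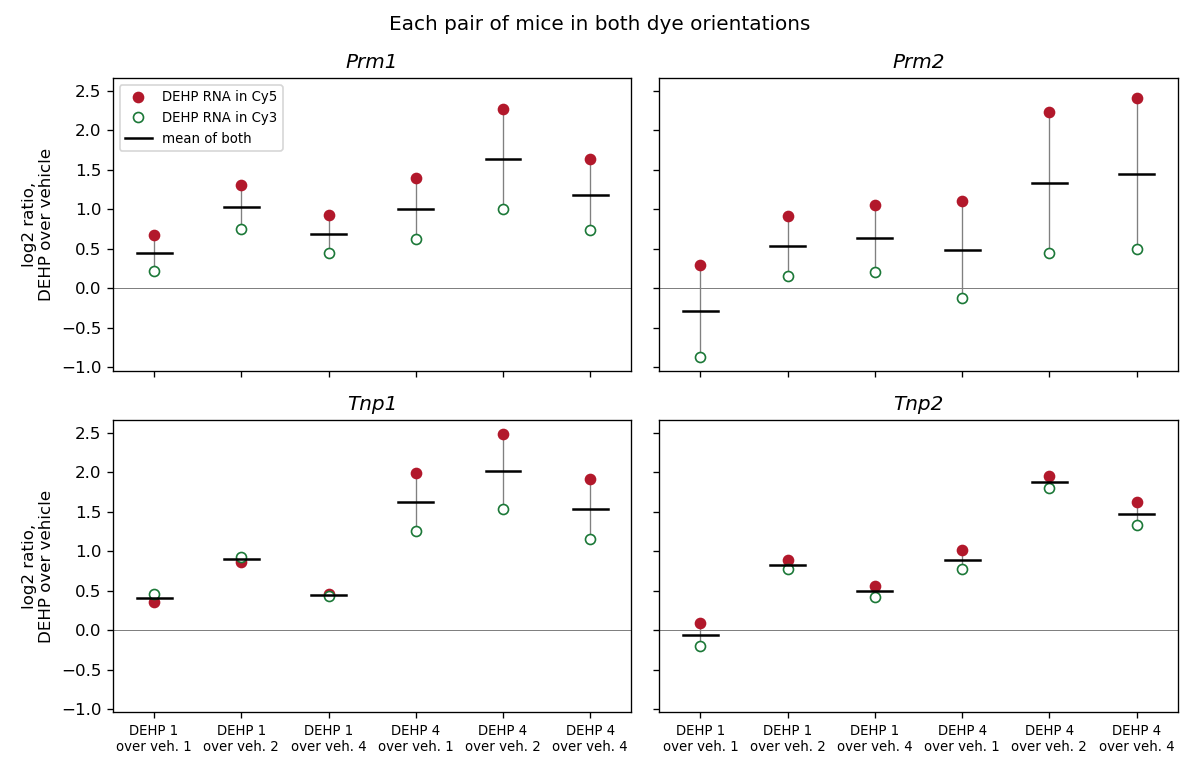
Log2 ratio of the DEHP over the vehicle mouse (y axis) for each of the 6 pairs of mice (x axis), with DEHP RNA in Cy5 (filled) and in Cy3 (open) and their mean (bar), for Prm1, Prm2, Tnp1 and Tnp2. Prm1 and Tnp1 lie above 0 on all 12 arrays, while Prm2 reaches -0.87 for DEHP mouse 1 over vehicle mouse 1 and has the widest gaps between dyes.

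Among these 4 genes the gap between dyes was widest for Prm2. Its array log ratios ran from -0.87 to 2.41, and the Cy5-minus-Cy3 half-differences within a pair ran from 0.38 to 0.95. Those of Tnp2 stayed close to the mean of each pair, as the plot of pairs in both dye orientations shows. The slides were also taken one at a time. Slide 1, with vehicle mice 1 and 2 and DEHP RNA in Cy5, slide 2, with the same mice and DEHP RNA in Cy3, and slide 3, with vehicle mouse 4 and both orientations, gave differences of 1.42, 0.65 and 0.94 for Prm1 and 1.42, 1.04 and 0.99 for Tnp1. The same slides gave 1.14, -0.10 and 1.04 for Prm2 and 0.99, 0.79 and 0.98 for Tnp2. On slide 1 or slide 2 alone, DEHP RNA was in a single dye, so the dye effect cannot be separated from the difference.

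Among the germ-cell histones the differences were small. Hils1, a linker histone-like protein of elongating spermatids (brightest probe at chr11:95077328-95077387), was at -0.04 and 0.22 in DEHP mice, against 0.39, -0.15 and -0.42 in vehicle mice, and the difference was 0.15 (SE 0.29). Vehicle mouse 1 was the highest of the 5 mice. Its other probe had a wider range, with -0.37 and 0.92 in DEHP mice, against 0.72, -0.94 and -0.33 in vehicle mice, and a difference of 0.46 (SE 0.60). With loess the probes differ in which mouse was highest, DEHP mouse 4 in the second. Their mean log2 intensities were 16.3 and 9.08. With each array centred on its median in place of loess, DEHP mouse 4 was also highest in the first probe. It was then at 0.98, against 0.63 in vehicle mouse 1. The difference of the first probe was negative, -0.24, on slide 2 alone, where the dye effect is not taken out.

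H1fnt, a linker histone of the haploid spermatid nucleus (probe at chr15:98238631-98238690), was at 0.09 and 0.25 in DEHP mice, against -0.07, 0.08 and -0.35 in vehicle mice. The groups did not overlap, though DEHP mouse 1 was only just above vehicle mouse 2, and the difference was 0.28 (SE 0.22). Hist1h1t, the linker histone of meiotic and early haploid cells (probe at chr13:23062276-23062335), was at -0.48 and 0.93 in DEHP mice, against 0.28, -0.53 and -0.20 in vehicle mice, and the difference was 0.37 (SE 0.48). DEHP mouse 1 was lower than vehicle mice 1 and 4. Hist1h2ba, a testis form of histone H2B (probe at chr13:23299744-23299803), was at -0.11 and 0.15 in DEHP mice, against 0.39, -0.45 and 0.02 in vehicle mice, with a difference of 0.03 (SE 0.30). The DEHP values lay within the range of the vehicle mice.

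For 3 of the 9 genes, Prm1, Tnp1 and H1fnt, both DEHP mice lay above all vehicle mice, against 3.95% of all genes in this direction and 5.22% in the opposite one, in which none of the 9 stood. At an unadjusted p under 0.05 stood 2 of the 9, Prm1 and Tnp1, against 0.505% of all genes with DEHP higher and 0.859% in either direction. These counts depend on how the arrays were scaled. With each array centred on its median in place of loess, which moved the median of all genes by -0.18 in DEHP mouse 1, 0.18 in DEHP mouse 4 and 0.11 in vehicle mouse 4, the groups overlapped for all 9 genes, against 2.38% of all genes with DEHP higher and no overlap. DEHP mouse 1 then lay at -0.25 for Prm1, under vehicle mouse 1 at 0.16, and at -0.41 for Tnp1, under vehicle mice 1 and 4 at -0.10 and -0.25. With the scanner software's processed signals, the groups did not overlap for Prm1 and Tnp1, 2 of the 9 against 3.19% of all genes, and overlapped for H1fnt.

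**Figure D2:**
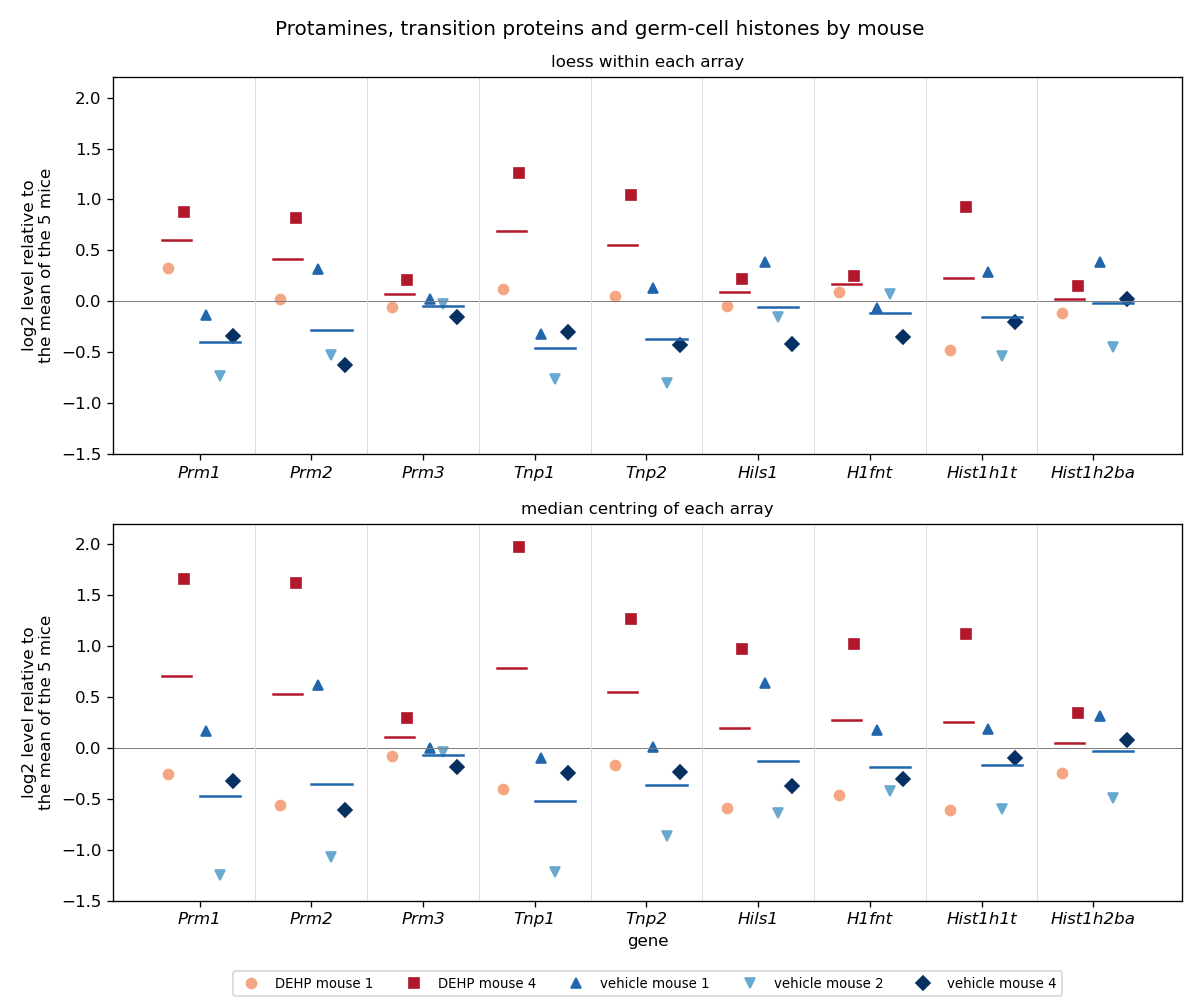
Log2 level of each gene relative to the mean of the 5 mice (y axis) for the 9 genes (x axis), with arrays normalised by loess (top) or centred on the median (bottom); symbols are mice and bars are group means. DEHP mouse 4 is highest for 7 of the 9 genes with loess and for all 9 with median centring, where both groups overlap for every gene.

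DEHP mouse 4 was the highest of the 5 mice in 7 of the 9 genes and vehicle mouse 1 in the other two, Hils1 and Hist1h2ba. Vehicle mouse 1 lay above DEHP mouse 1 in 6 genes. The lowest mouse was vehicle mouse 2 in 5 genes and vehicle mouse 4 in 4. In the 6 genes with vehicle mouse 1 above DEHP mouse 1, the order of the mice was therefore not the order of the groups. In Prm1, Tnp1 and H1fnt the groups did not overlap with loess. Without DEHP mouse 4, the difference was 0.58 for Tnp1, 0.42 for Tnp2 and 0.30 for Prm2; without DEHP mouse 1 it was 1.72, 1.42 and 1.09.

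The differences between mice of one group were tested on the 12 array log ratios, which compares RNA extracts and not animals. DEHP mouse 4 was higher than DEHP mouse 1 in 8 of the 9 genes, against 36.3% of all genes in this direction and 41.1% in the other, with an adjusted limma p under 0.05. With the brightest probe of each gene and loess, Hist1h1t differed most, by 1.41 (SE 0.09), followed by Tnp1 at 1.14 (SE 0.14), Tnp2 at 0.99 (SE 0.04) and Prm2 at 0.80 (SE 0.14). H1fnt missed the threshold, with 0.16 (SE 0.11, adjusted p 0.182). Vehicle mouse 1 was higher than the mean of vehicle mice 2 and 4 in 6 of the 9, against 33.9% of all genes, with 38.2% of all genes lower. Among them were Prm2 at 0.89 (SE 0.14) and Tnp2 at 0.75 (SE 0.04), and the second Hils1 probe gave 1.35, and 1.28 between the DEHP mice. Tnp1 (0.21, adjusted p 0.224), Prm3 (0.11, adjusted p 0.239) and H1fnt (0.07, adjusted p 0.618) missed the threshold. With median centring the difference between DEHP mice 4 and 1 was larger, 1.48 for H1fnt, 1.91 for Prm1 and 2.38 for Tnp1. Hist1h1t, at 1.73, was then below Prm1 and Tnp1. H1fnt then passed in both comparisons and Tnp1 passed between the vehicle mice, while with no filter on dim probes Hils1 between the DEHP mice missed the threshold (adjusted p 0.0570).

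**Figure D3:**
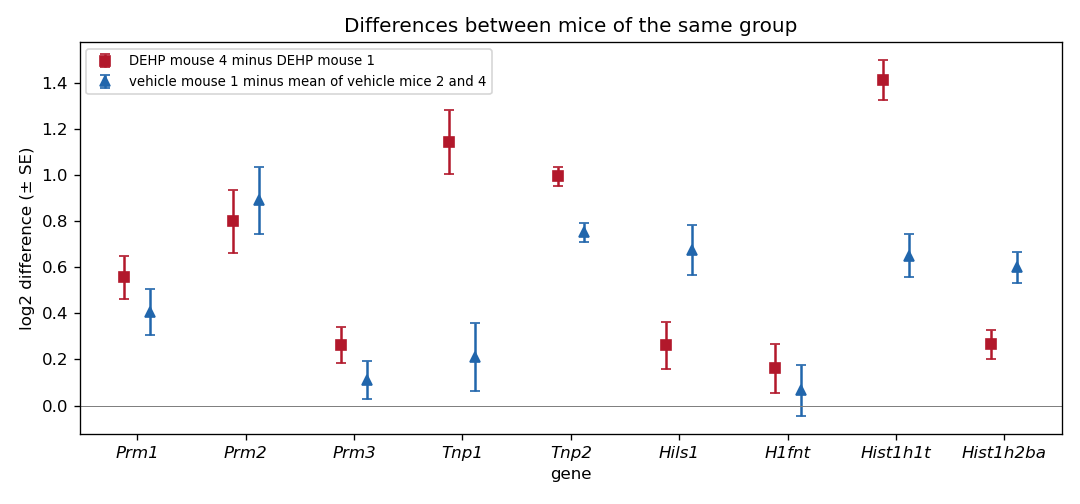
Log2 difference (y axis, with SE bars) between DEHP mice 4 and 1 (squares) and between vehicle mouse 1 and the mean of vehicle mice 2 and 4 (triangles) for the 9 genes (x axis). With loess and the brightest probe of each gene, all differences are above 0. The largest is then Hist1h1t between the DEHP mice, at 1.41.

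The other spermatid markers followed a like order of mice. Their median was -0.06 and 0.70 in DEHP mice 1 and 4, against 0.31, -0.49 and -0.48 in vehicle mice 1, 2 and 4, and their median difference was 0.42, with 17 of 18 above 0. For the 9 genes the medians were 0.02 and 0.82 in DEHP mice, against 0.13, -0.52 and -0.34 in vehicle mice, with a median difference of 0.37, against -0.01 over all genes. Among the markers, Smcp, of the sperm mitochondrial capsule, had a difference of 0.87 (SE 0.41), Akap4, of the fibrous sheath, 0.68 (SE 0.39), and Fscn3 0.62 (SE 0.33). Odf2, of the outer dense fibres, had 0.44 (SE 0.22) and was the 1 of 18 spermatid markers whose groups did not overlap with DEHP higher, against 3.95% of all genes. By median, spermatocyte markers were also higher in DEHP mouse 4 than 1 and in vehicle mouse 1 than 2 and 4. Their median was -0.27 and 0.20 in DEHP mice, against 0.26, -0.08 and -0.18 in vehicle mice. For transcription and mRNA storage factors of haploid cells it was -0.20 and 0.34, against 0.32, -0.27 and -0.25.

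Leydig cell and macrophage markers ran the other way across mice. The Leydig median was 0.68 and -0.78 in DEHP mice, against -0.60, 0.34 and 0.41 in vehicle mice; the macrophage median was 0.47 and -0.47 in DEHP mice, against -0.43, 0.06 and 0.45 in vehicle mice. The summed Leydig marker level spanned 16.11 to 17.68 in DEHP mice and 16.39 to 17.66 in vehicle mice, as log2 intensity. In DEHP mouse 4, 12 of 13 Leydig markers were lower than in mouse 1 and none higher, with an adjusted limma p under 0.05. Of all genes, 41.1% were lower and 36.3% higher at this threshold. The log2 difference, mouse 4 minus mouse 1, was -2.60 for Hsd3b1, a steroidogenic dehydrogenase, and -1.82 for Cyp11a1, the side-chain cleavage enzyme. A DEHP minus vehicle difference above 0 was found for 2 of 13 Leydig, 4 of 10 macrophage, 5 of 14 spermatocyte, 2 of 11 Sertoli cell and 1 of 6 peritubular myoid markers. The part of these differences in the values of the 9 genes was not tested.

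**Figure D4:**
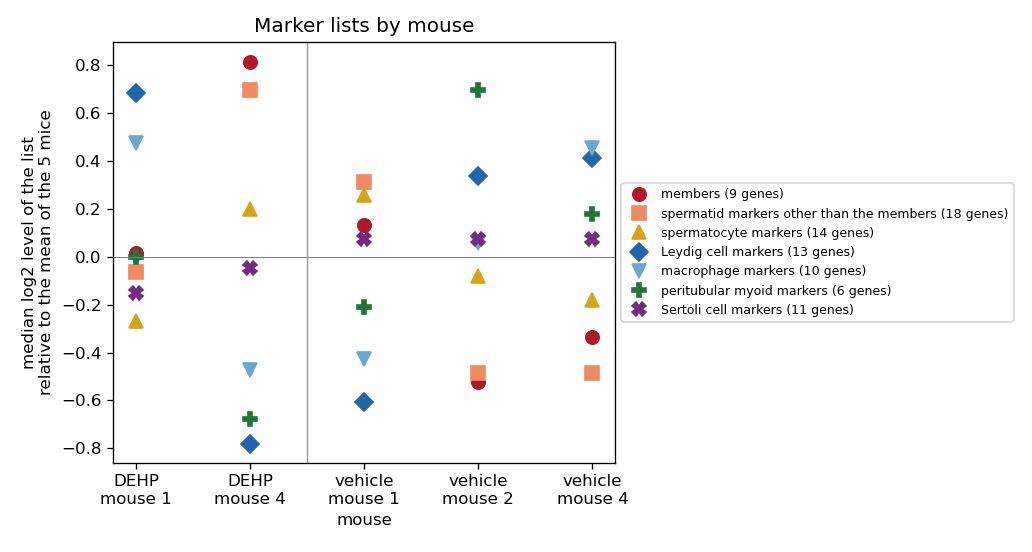
Median log2 level of 7 lists of genes, relative to the mean of the 5 mice (y axis), in each mouse (x axis). The 9 genes and the other spermatid markers are highest in DEHP mouse 4, at 0.82 and 0.70, where Leydig cell markers are lowest, at -0.78.

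The genes were also set against the median of the other 18 spermatid markers in the same mouse. This takes the same value off every gene in a mouse and lowers every DEHP minus vehicle difference by 0.54, so a gene with a smaller difference turns negative by construction, and the spacing between genes is unchanged. On this scale Prm1, Prm2 and Tnp2 were higher in both DEHP mice than in all vehicle mice, against 0.392% of all genes, and Hils1 and Hist1h2ba were lower, against 12.2%. Tnp2 was at 0.12 and 0.35 in DEHP mice, against -0.18, -0.32 and 0.05 in vehicle mice. Hils1 was at 0.02 and -0.48 in DEHP mice, against 0.08, 0.34 and 0.07 in vehicle mice. The limma fit called none of the 9 and 0% of all genes, with an adjusted p of 0.623 for Prm1, Tnp1 and Tnp2. With median centring Prm1, Tnp1 and Tnp2 were higher without overlap (0.701% of all genes) and Hils1 lower (3.9%); with processed signals Tnp2 alone was higher (0.657%) and none lower. The spermatid list was chosen with earlier results known, and its members are no independent support.

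**Figure D5:**
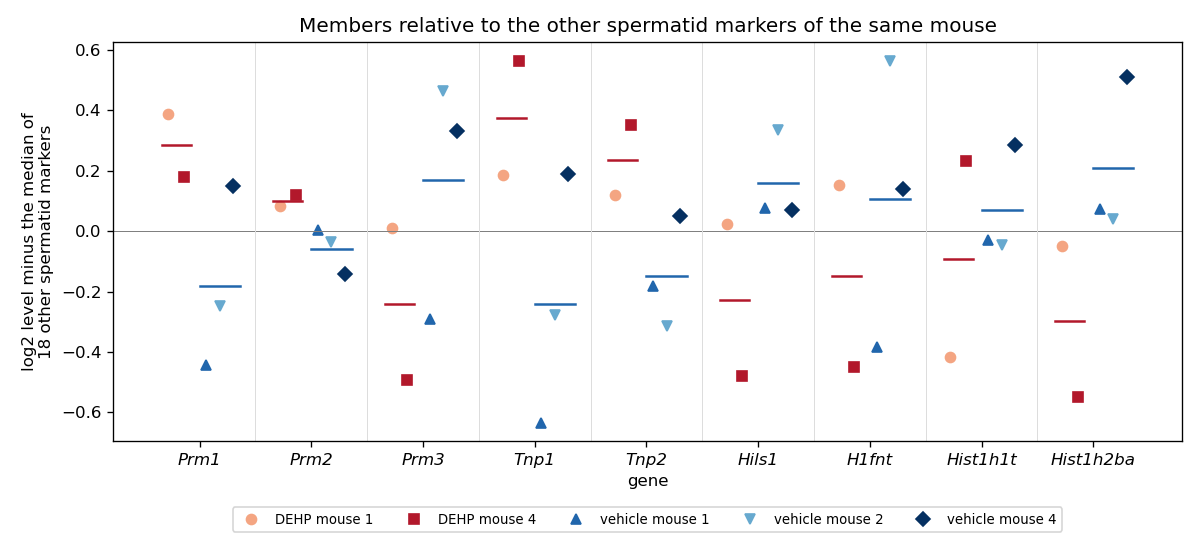
Log2 level of each of the 9 genes minus the median of 18 other spermatid markers in the same mouse (y axis), by gene (x axis); symbols are mice and bars are group means. Tnp2 lies at 0.12 and 0.35 in DEHP mice, above the vehicle mice, and Hils1 at 0.02 and -0.48, below them.

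Of 17 factors that replace histones, 15 were tested and 13 had a difference above 0, with a median of 0.19. Cdyl, a chromodomain protein, had 0.62 (SE 0.41), Chd5, a chromatin remodeller, 0.58 (SE 0.52), Dot1l, a histone methyltransferase, 0.46 (SE 0.29), and Kdm3a, a histone demethylase, 0.33 (SE 0.31); none was called. The 1 factor of this list without overlap was the acetyltransferase Kat5 (0.11, SE 0.18), named after its values were seen, 1 of 15 against 3.95% of all genes. Of 20 transcription and mRNA storage factors of haploid cells, 16 had a difference above 0, with a median of 0.12. Taf7l, a testis TFIID subunit, was the 1 whose groups did not overlap, lower in DEHP mice, at -0.39 and -0.09 against 0.14, 0.16 and 0.17 in vehicle mice (difference -0.40, SE 0.20), 1 of 20 against 5.22% of all genes. The differences of Sox30, a transcription factor, Paip2, a translation regulator, and Kif17, a kinesin, were 0.45 (SE 0.39), 0.44 (SE 0.46) and 0.42 (SE 0.39). Of 15 somatic linker and variant histones, 11 were tested and 4 had a difference above 0, with a median of -0.14. H1fx, a linker histone, was at 0.02 and 0.58 in DEHP mice, against -0.05, -0.19 and -0.36 in vehicle mice. It was the 1 of these 11 without overlap, against 3.95% of all genes with DEHP higher. H1f0, H2afv and Cenpa had differences of -0.44 (SE 0.25), -0.33 (SE 0.32) and -0.32 (SE 0.27).

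Across 9207 genes with a symbol that were well above background on all arrays, those whose 5 mouse values were closest to the mean profile of the 9 genes were Spock2, Mns1, Rtf1, Enah, Aif1, Ppid, 4930449C09Rik and Coq10b, with root mean square distances from 0.060 to 0.071, against a median of 0.467. Within the set, Prm1 and Tnp2 were nearest each other (0.192), as were Prm3 and H1fnt (0.125), and Tnp1 was nearest to Prm1 (0.213). The distances are over 5 mice and describe these mice only.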

How the data were processed

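Per the file headers, Feature Extraction (version 9.5.1.1) wrote the deposited spot intensity of each channel and the log10 of red over green; outlier, saturation and background marks of 0 or 1 are deposited with them. The deposited value table holds the authors' log2 ratios for 13669 spots; its identifiers follow spot order, and against the scanner's ratios it ran as DEHP over vehicle (r 0.915 to 0.993, slopes 0.842 to 0.932, medians -0.06 to 0.00). Its filter and normalization are not given in the sources used here. It holds Tnp2 and Hist1h1t of the 9 genes. Per the submitters' processing notes, limma was used; its version is not given. In R 4.3.3 and limma 3.58.1, normexp (offset 50) corrected the background, arrays were normalised with loess, and least squares on the 12 log ratios gave each mouse's value and a dye effect. Probes well above background on 50% of the arrays of at least 2 mice were kept; a gene is represented by its brightest probe. The group test used lmFit and eBayes on 5 mouse values, adjusted by Benjamini-Hochberg at 0.05. The arrays lay on 3 slides of 4. Named were all 9 genes, the 4 of lowest p in each list (of the cell marker lists only some are printed), and the 8 nearest genes. Members and lists were chosen with earlier results of these data known. Functions were tested on simulated data. The motifs were searched in the 250 bases before each start.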

Additional observations from a re-analysis of the deposited data

How the results depend on the processing

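None of the 9 genes was called in any alternative that kept the mouse as the replicate. With 12 arrays as independent samples, 2123 of 15830 genes passed, 5 of the 9 among them. That setting counts repeated arrays of the same 5 mice as replicates. The median difference of the 9 genes, 0.37, was 0.807 over the 6 well above background on all 12 arrays, -0.16 relative to the other spermatid markers, 0.10 on slide 2 alone, 0.66 with processed signals, and 0.202 to 1.08 with a mouse left out. Negative values were given by slide 1 for Hist1h2ba (-0.0035), slide 2 for Prm2 (-0.10) and Hils1 (-0.24) and slide 3 for Hist1h2ba (-0.0062). The values of slides 1 and 2 still hold the dye effect. A fit with 2 dye effects and the scaling to the other spermatid markers were added after seeing the data. That scaling lowers every difference by 0.54, which by its construction turns smaller ones negative: Prm3 was -0.41, Hils1 -0.39, H1fnt -0.25, Hist1h1t -0.16 and Hist1h2ba -0.51. With a mouse left out, Prm3 ranged from -0.0049 to 0.26, Hils1 from -0.031 to 0.37, Hist1h1t from -0.33 to 1.08 and Hist1h2ba from -0.19 to 0.23. With 1 DEHP mouse left, its spread was taken from the vehicle group. Without DEHP mouse 4, 6 of the 9 differences were above 0. With processed signals the difference of Prm3 between DEHP mice 4 and 1 was -1.99, and its DEHP minus vehicle difference was 2.12, against 0.13 with loess. The replicate block on mouse numbers gave -0.19 for Hist1h2ba and no change in any other sign. Deviations of DEHP and vehicle mice of the same number had r of -0.73 (mice 1) and -0.56 (mice 4). With 2 DEHP and 3 vehicle mice, these values cannot decide whether the numbers mark a pairing. The causes were not tested. A dye effect for each slide could not be fitted. With 5 mice and no depth from arrays, precision rests on their number.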
